A study of Danio rerio with 3 samples.

Results

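A set of 4 genes tied to myeloid blood cells was followed in whole zebrafish embryos: the transcription factor genes cebpa and cebpb, the lysozyme gene lyz and the lysosomal protease gene ctsz. They were found as the probe sets whose single annotated gene symbol is one of these names, which gave 4 probe sets, 1 per gene, among 15502 probe sets and 8793 named genes. The 4 genes had been picked for their difference between embryos given the PGRP-SC siRNA and embryos given the control siRNA, so their ratios are a description and carry no test. RNA came from pools of 400 whole embryos at 24 hours post-fertilization, kept at 28 ± 0.5 °C, with 1 array for each of 3 groups. The groups were embryos injected as zygotes with an siRNA against zebrafish PGRP-SC, embryos injected with a control siRNA, and uninjected embryos. Injections held 1 nL of siRNA at 300 ng/µl. By the submitters' account embryos of all parents had been mixed before they were divided, which was not checked here. The label of the PGRP-SC sample names only the target, and that the agent was an siRNA comes from the series' design text. No genotype, strain or parental line is stated for the embryos, and the sequence of neither siRNA is given in the sources used here.

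C/EBP proteins are basic leucine zipper transcription factors that pair with one another and bind CCAAT-type sites. In mammals C/EBP-alpha is needed for granulocyte formation and C/EBP-beta takes part in macrophage function and in granulocyte formation under stress, and both also act in liver and fat, so neither gene marks myeloid cells alone. Lysozyme cleaves peptidoglycan of the bacterial cell wall, the polymer that peptidoglycan recognition proteins such as PGRP-SC bind, and lyz is used in zebrafish larvae as a marker of neutrophils and some macrophages. The ctsz gene encodes cathepsin Z, a lysosomal cysteine protease that trims single residues from the carboxyl end of proteins and is found in many cell types.

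Signals are linear intensities, scaled to a common mean in each array, and a signal under 101.7 (the 40th percentile of all signals) was taken as too low to measure and set to that floor. The median of the deposited signals, before scaling and floor, was 161.6 with PGRP-SC siRNA, 169.6 with control siRNA and 166.4 without injection. Variation among embryo pools cannot be estimated from 1 array per group, so the text gives no p-value, and the number of arrays limits the precision of every value. As a background, 95% of the 8870 probe sets above the floor in both controls differed by less than 1.71-fold between the control siRNA and uninjected arrays. This spread comes from 1 pair of arrays and gives a sense of size, not a test. In that pair 1.1% of probe sets were at least 2-fold higher and 0.857% lower, against 2.83% and 3.5% for PGRP-SC siRNA over control siRNA. The 4 genes were chosen on the latter comparison, so ratios past the spread there follow in part from the choice. The PGRP-SC gene itself was not analysed here, so the knockdown was not checked. The ratio of 5' to 3' signal in the array maker's acta1 probe sets, which bears on RNA quality and labelling, was 0.127 with PGRP-SC siRNA, 0.205 with control siRNA and 0.369 without injection. For GAPDH it was 0.498 with PGRP-SC siRNA, 0.347 with control siRNA and 0.350 without injection, and the part of either in the ratios below was not tested.

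The C/EBP genes were higher with PGRP-SC siRNA than in either control, whereas lyz and ctsz were lower than in either control. The signal of cebpa was 3665 with PGRP-SC siRNA, 1601 with control siRNA and 1150.5 without injection. The PGRP-SC siRNA array was thus the highest for cebpa, 2.29-fold over control siRNA and 3.19-fold over uninjected embryos, and the control siRNA array lay between the others at 1.39-fold over uninjected. Among the 633 probe sets with a control signal within 1.2-fold of that of cebpa, 95% differed by less than 1.58-fold between the controls. The cebpa differences from both controls were larger than that spread, and the difference between the controls was smaller.

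The signal of cebpb was 1393 with PGRP-SC siRNA, 566 with control siRNA and 655 without injection. Here the controls were close together, with a log2 ratio of -0.21 for control siRNA over uninjected, and the PGRP-SC siRNA array stood 2.46-fold over control siRNA and 2.13-fold over uninjected. For probe sets of similar signal the spread between the controls was 1.67-fold, so the cebpb differences from both controls were larger than it. Unlike cebpa, cebpb had its lowest signal with control siRNA and not in the uninjected array.

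The signal of lyz was 399 with PGRP-SC siRNA, 599 with control siRNA and 1051 without injection. All of the arrays differed, and the PGRP-SC siRNA array was the lowest. Its log2 ratio was -0.59 for PGRP-SC siRNA over control siRNA and -1.40 for PGRP-SC siRNA over uninjected. The larger step of that second difference stood between the controls, at a log2 ratio of -0.81 for control siRNA over uninjected, a 1.75-fold lower signal with control siRNA. The spread between the controls for probe sets of similar signal was 1.58-fold. The 1.5-fold lower signal of lyz against control siRNA was inside that spread, while its difference between the controls was outside it.

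The signal of ctsz was 157 with PGRP-SC siRNA, 302 with control siRNA and 431 without injection. The order of the arrays was that of lyz, but the larger step lay between PGRP-SC siRNA and control siRNA, with a log2 ratio of -0.95, and the smaller one between control siRNA and uninjected, at -0.51. The signal was 1.93-fold lower than with control siRNA and 2.75-fold lower than in uninjected embryos, against a spread between the controls of 1.79-fold at similar signal. In the PGRP-SC siRNA array ctsz was 1.54 times the floor, the lowest of the 4 genes, and under a higher floor, the 60th percentile of signals, the log2 ratio became -0.17 against control siRNA and -0.68 against uninjected, both of them bounds, since the PGRP-SC siRNA signal is then under the floor.

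**Figure D1:**
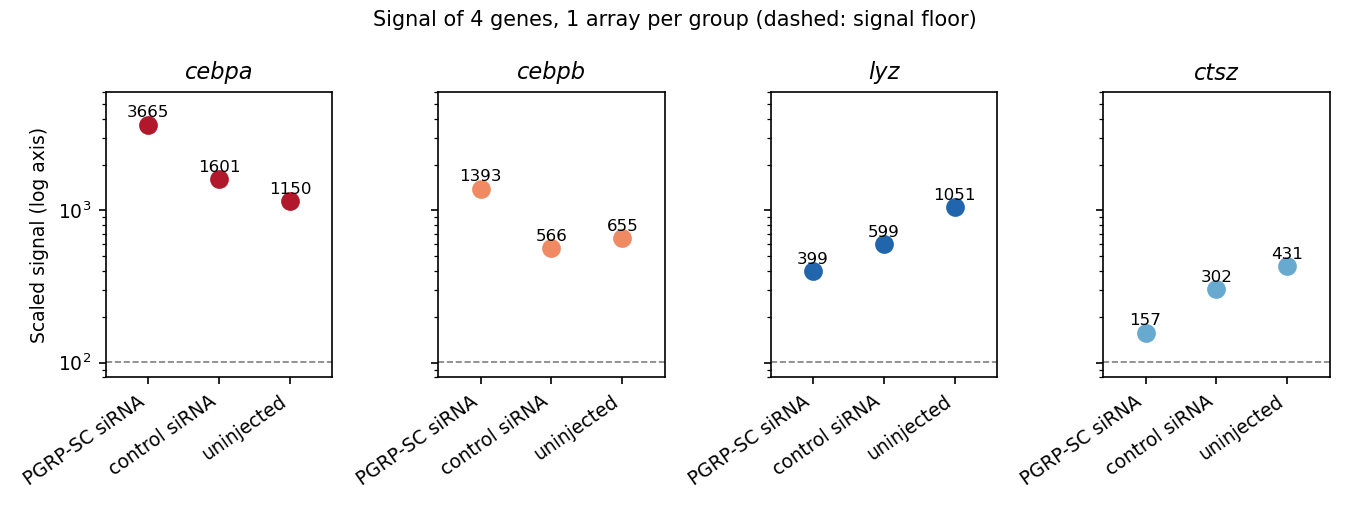
Scaled signal on a log axis of cebpa, cebpb, lyz and ctsz in the PGRP-SC siRNA, control siRNA and uninjected arrays, with 1 point per array and the signal floor dashed. The PGRP-SC siRNA point is the highest for cebpa (3665) and cebpb (1393) and the lowest for lyz (399) and ctsz (157).

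Counted at 2-fold against control siRNA, 2 of the 4 genes were higher (cebpa and cebpb) and 0 were lower, where over all probe sets with a ratio 2.83% were higher and 3.5% lower. The genes were chosen on this comparison, so nothing is read from that share. Against uninjected embryos 2 were higher and 2 lower, where 5.56% of all probe sets were higher and 6.34% lower. Both comparisons use the same PGRP-SC siRNA array. Between control siRNA and uninjected embryos none of the 4 reached 2-fold, where 1.1% of all probe sets were higher and 0.857% lower with control siRNA. Of 6514 genes with a ratio over control siRNA, 1.30% were at least as high as cebpb and 1.70% at least as high as cebpa. At the other end 3.58% were at least as low as ctsz and 11.5% at least as low as lyz. Against uninjected embryos 1.39% of 6565 genes were at least as high as cebpa and 4.43% as cebpb, and 2.16% were at least as low as ctsz and 2.51% as lyz.

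**Figure D2:**
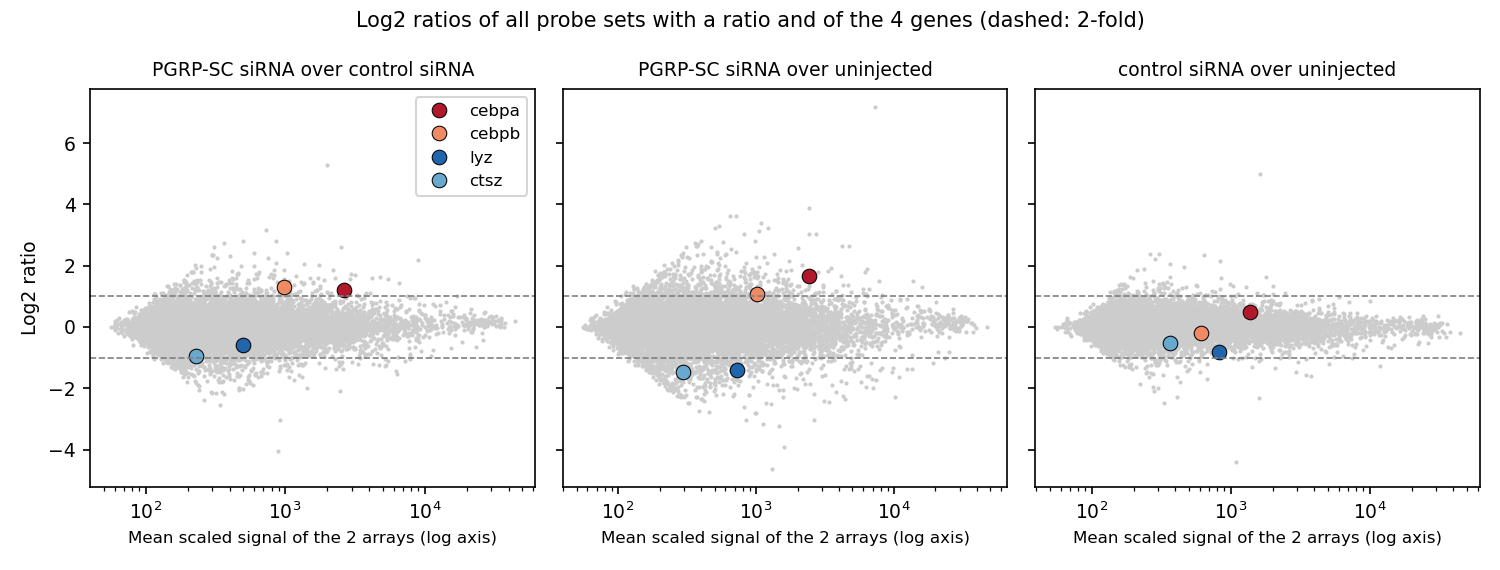
Log2 ratio against mean scaled signal of the arrays compared (log axis) for every probe set with a ratio (grey) and for the 4 genes (coloured), with 2-fold dashed, in the 3 comparisons. Both C/EBP genes lie above the 2-fold line in each comparison with PGRP-SC siRNA on top, lyz and ctsz pass the lower line only against uninjected embryos, and none of the 4 passes either line between the controls.

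The comparison of cebpa and cebpb with the lysosomal and granule genes lyz and ctsz sets changes, not levels, side by side. Levels of different probe sets cannot be compared. The mean log2 ratio of PGRP-SC siRNA over control siRNA was 1.25 for cebpa and cebpb and -0.77 for lyz and ctsz, a gap of 2.01. Over uninjected embryos the means were 1.38 and -1.43, a gap of 2.81. For control siRNA over uninjected they were 0.13 and -0.66, a gap of 0.79. Taken as single pairs of a C/EBP gene and lyz or ctsz, the gaps ran from 1.78 to 2.25 over control siRNA, from 2.48 to 3.13 over uninjected embryos, and from 0.30 to 1.29 between the controls. The narrowest pair between the controls was cebpb with ctsz and the widest was cebpa with lyz. The choice of the genes fixed the direction of these gaps in the comparison with control siRNA. The gap over uninjected embryos is that gap plus the gap between the controls, so the choice bears on it as well. Within each pair the genes were not alike either: cebpa differed between the controls by a log2 ratio of 0.48 and cebpb by -0.21.

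The control siRNA array lay between the PGRP-SC siRNA and uninjected arrays for 3 of the 4 genes, cebpa, lyz and ctsz. Among 5751 genes above the floor in all arrays it did so for 53.1%.

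The rest of the C/EBP family gave smaller differences. Of 7 names listed, 5 were on the array and 4 gave a ratio, and 2 of those 4, both already described, were at least 2-fold higher with PGRP-SC siRNA than with control siRNA, where 2.87% of all genes were higher and 2.93% lower. Those 2, cebpa and cebpb, had been chosen on this comparison, so nothing is read from that share. Without them 0 of 2 genes with a ratio were 2-fold apart, and the smaller differences of the rest follow in part from the choice. The signal of cebpd, an acute-phase member of the family in mammals, was 666 with PGRP-SC siRNA, 398 with control siRNA and 447 without injection. It was thus the highest with PGRP-SC siRNA, at a log2 ratio of 0.74 over control siRNA and 0.57 over uninjected, short of 2-fold. Its second probe set was under the floor in every array. The signal of cebpg, a member that lacks a strong activation domain, was 426 with PGRP-SC siRNA, 439.9 with control siRNA and 498 without injection, a log2 ratio of -0.05 over control siRNA. In the gene order of the zebrafish reference assembly GRCz12tu, cebpg is the protein-coding gene next to cebpa, so these neighbours differed in their ratios. The gene on the other side of cebpa, heatr3, named for its position, had a log2 ratio of -0.39 over control siRNA, and ptpn1, beside cebpb, had 0.09. The member known as restricted to myeloid cells in zebrafish, cebp1, was under the floor in all arrays, at 77.3 with PGRP-SC siRNA, 83.2 with control siRNA and 87.4 without injection by its brighter probe set.

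Among 9 blood and myeloid transcription factor genes on the array, 7 were above the floor in some array, 6 gave a ratio over control siRNA, and 0 of these were 2-fold apart in either direction. Their median log2 ratio was -0.01, and that of all genes was -0.003. Over all genes 2.87% were at least 2-fold higher and 2.93% lower. The gene of Pu.1, spi1b, which drives myeloid fate, had signals of 138 with PGRP-SC siRNA, 76.0 with control siRNA, under the floor, and 126 without injection. Its second probe set was under the floor throughout. The stem cell factor gene myb was at a log2 ratio of 0.02 over control siRNA, and the early blood factor genes lmo2 and tal1 were at -0.03 and -0.41. The ETS repressor gene etv6 was at -0.23 and klf6a, a Krüppel-like factor gene, at 0.04. Over uninjected embryos lmo2 was at 0.66 and nfe2, an erythroid and platelet factor gene, at -0.41 with its PGRP-SC siRNA signal under the floor. The ratios of control siRNA over uninjected were alike, at 0.69 for lmo2 and -0.41 for nfe2. The control siRNA signal of nfe2 was also under the floor.

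Most pan-leukocyte and macrophage markers on the array gave little signal in these whole-embryo pools. Of 10 pan-leukocyte genes on the array, 6 were under the floor in every array, among them the CD45 gene ptprc, at 23.1 with PGRP-SC siRNA, 29.6 with control siRNA and 28.5 without injection. Of 8 macrophage genes 6 were under the floor in every array, including the CSF1 receptor gene csf1ra and the scavenger receptor gene marco. These markers, like cebp1, were chosen for naming although they gave no ratio. Some other leukocyte genes were above the floor, among them 5 of 6 neutrophil genes in at least 1 array, and are given below. Of all probe sets, 40.4% were under the floor with PGRP-SC siRNA, 39.9% with control siRNA and 39.7% without injection. The label of the 4 genes as myeloid rests mainly on what is known of them. In pooled embryos fewer cells of a type and less RNA per cell cannot be told apart.

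Those leukocyte genes that were measured went both ways. The neutrophil myeloperoxidase gene mpx had signals of 287 with PGRP-SC siRNA, 104 with control siRNA, just above the floor, and 96.4 without injection, under it, by its brightest probe set. That probe set was 2.76-fold higher with PGRP-SC siRNA than with control siRNA and at least 2.82-fold higher than in uninjected embryos. The other 3 probe sets of mpx did not show this: one had 42.5 with PGRP-SC siRNA, 53.1 with control siRNA and 111 without injection, and the others were under the floor throughout. Among the remaining neutrophil genes, the collagenase gene mmp13a was at 168 with PGRP-SC siRNA, 87.7 with control siRNA and 112 without injection, and mmp9, a gelatinase gene, at 119.8 with PGRP-SC siRNA, 79.0 with control siRNA and 112 without injection. With control siRNA both were under the floor. The cofilin-like gene cfl1l was at a log2 ratio of -0.14 over control siRNA. Of the 5 neutrophil genes with a ratio over control siRNA, 1 was at least 2-fold higher (mpx) and 0 lower, where 2.87% of all genes were higher and 2.93% lower. Over uninjected embryos 1 was higher (mpx) and 1 lower (lyz), where 5.76% of all genes were higher and 6.09% lower. The summed signal of the 6 on the array, most of it from cfl1l, was 6976 with PGRP-SC siRNA, 7518 with control siRNA and 7805 without injection. Without lyz the sum was 6577 with PGRP-SC siRNA, 6918 with control siRNA and 6754 without injection. The graded order of the arrays in the full sum thus came from lyz.

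The macrophage lysosomal membrane protein gene cd68 had 1284 with PGRP-SC siRNA, 914 with control siRNA and 1057 without injection, a log2 ratio of 0.49 over control siRNA. The amino acid transporter gene slc7a7 was near the floor, at 116 with PGRP-SC siRNA, 100.1 with control siRNA and 84.6 without injection. Of 4 pan-leukocyte genes with a ratio over control siRNA, 0 were 2-fold apart, and 2 were above and 2 below 0. Over all genes 2.87% were at least 2-fold higher and 2.93% lower, and 49.7% were above 0. The L-plastin gene lcp1, an actin bundling protein of leukocytes, had 249.6 with PGRP-SC siRNA, 182 with control siRNA and 335 without injection. The coronin gene coro1a was at a log2 ratio of -0.39 over control siRNA and 0.27 over uninjected, while its second probe set, at 50.3 with PGRP-SC siRNA, 134 with control siRNA and 191 without injection, was lowest with PGRP-SC siRNA. The Arp2/3 subunit gene arpc1b had its arrays in the same order as lyz, at 79.6 with PGRP-SC siRNA, under the floor, 179 with control siRNA and 394 without injection. The NADPH oxidase subunit gene cyba was at 0.21 over control siRNA, and its second probe set was at 0.63, with the control siRNA signal under the floor. The summed signal of the 10 pan-leukocyte genes on the array was 1376 with PGRP-SC siRNA, 1649 with control siRNA and 1767 without injection. That of the 8 macrophage genes was 1523 with PGRP-SC siRNA, 1189 with control siRNA and 1334 without injection. Most of the macrophage sum came from cd68, and only 2 of the 8 genes were above the floor in any array, so its order is that of cd68.

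**Figure D3:**
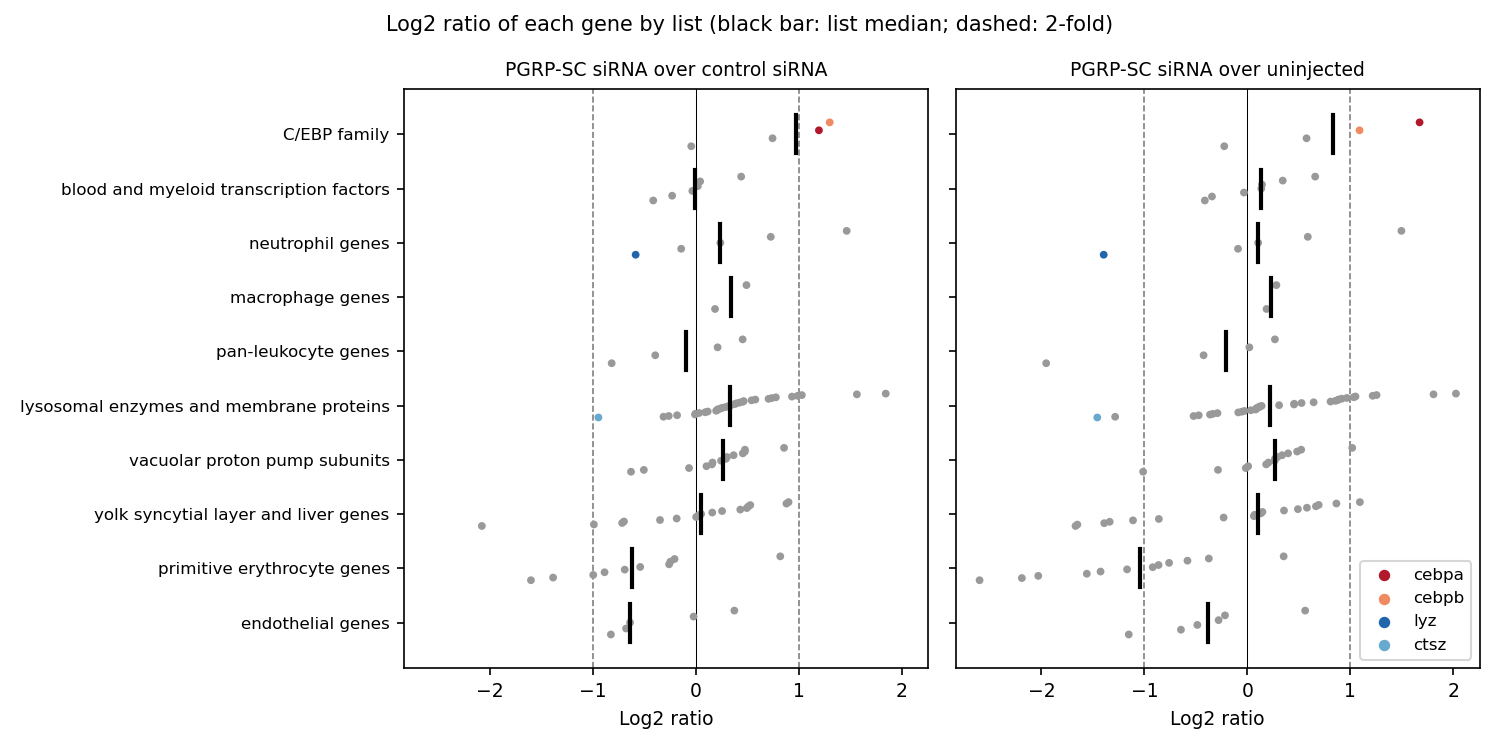
Log2 ratio of each gene with a ratio (points) by gene list, for PGRP-SC siRNA over control siRNA on the left and over uninjected on the right, with the list median as a black bar, 2-fold dashed and the 4 genes coloured. In the left panel ctsz is the lowest point of the lysosomal list, whose median is 0.33, and lyz is the lowest of the neutrophil list. Both genes had been chosen on the comparison in that panel.

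The lysosomal genes as a list went the other way from ctsz. Of 33 with a ratio over control siRNA, 27 were above 0 and 6 below, with a median log2 ratio of 0.33, where 49.7% of all genes were above 0. At least 2-fold higher were 3 of them and at least 2-fold lower 0, where 2.87% of all genes were higher and 2.93% lower. Without ctsz the list had 32 genes, of which 27 were above 0, and a median of 0.34. Over all settings tried the median of the list over control siRNA stayed between 0.25 and 0.40. No other gene of the list was as low as ctsz, and the next lowest was glb1l, a galactosidase-like gene named after its values were seen, at -0.31. Since ctsz had been chosen on this same comparison, its low place in the list follows in part from that choice. Without any floor 1 of 40 genes lay below ctsz, and under the floor of the 60th percentile 2 of 26 did. Over uninjected embryos 24 of 34 were above 0, with a median of 0.22, where 51.8% of all genes were above 0. Of the 34, 6 passed 2-fold upward and 2 downward (ctsz and glb1l), where 5.76% of all genes were higher and 6.09% lower. Between control siRNA and uninjected embryos 14 of 32 were above 0 and the median was -0.05, where 52.3% of all genes were above 0. In that comparison 0 genes of the list were at least 2-fold apart, where 1.11% of all genes were higher and 0.774% lower.

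The other cathepsins, which share a name with ctsz but are not all the same type of protease, mostly had small ratios above 0 for PGRP-SC siRNA over control siRNA. Of 11 cathepsin genes with a ratio, ctsz included, 9 were above 0 and 2 below, the second being ctsf at -0.004, where 49.7% of all genes were above 0. At least 2-fold higher was 1 of them and at least 2-fold lower 0, where 2.87% of all genes were higher and 2.93% lower. Over uninjected embryos 7 were above 0 and 4 below, with a median of 0.09, where 51.8% of all genes were above 0. In that comparison 3 were at least 2-fold higher and 1 lower, where 5.76% of all genes were higher and 6.09% lower. The cathepsin L-like gene ctsll had signals of 3449.6 with PGRP-SC siRNA, 961 with control siRNA and 848 without injection. It stood 3.59-fold over control siRNA, opposite to ctsz. Cathepsin S gene ctss2.1 had 9223 with PGRP-SC siRNA, 6183 with control siRNA and 3868 without injection, and ctsc, whose product activates granule proteases in mammals, had 3515 with PGRP-SC siRNA, 2763 with control siRNA and 1699 without injection. Both were graded across the arrays as ctsz was, in the opposite direction. The cathepsin L gene ctsla, the brightest of the list, was at a log2 ratio of 0.33 over control siRNA, the aspartic protease gene ctsd at 0.26, the carboxypeptidase gene ctsa at 0.21, ctss2.2 at 0.21 and ctsk at 0.09. The second probe set of ctss2.2 was at 0.78, with its control siRNA signal under the floor. The cathepsin B gene ctsba had 6082 with PGRP-SC siRNA, 4411 with control siRNA and 8444 without injection, so it was higher than with control siRNA and lower than in uninjected embryos.

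The second lysosomal gene at least 2-fold higher than in both controls was ifi30a, of a lysosomal thiol reductase, at 4392 with PGRP-SC siRNA, 1486 with control siRNA and 1255 without injection. The prosaposin gene psap, which encodes activators of sphingolipid breakdown, had 10349 with PGRP-SC siRNA, 5421 with control siRNA and 5916 without injection, a log2 ratio of 0.93 over control siRNA. The third past 2-fold over control siRNA was acp5a, of tartrate-resistant acid phosphatase, likewise named after its values were seen, at 1.03 over control siRNA and 0.92 over uninjected. Of 14 genes for subunits of the proton pump that acidifies lysosomes, 11 were above 0 over control siRNA and 0 were 2-fold apart, with a median of 0.27. Over all genes 49.7% were above 0, 2.87% at least 2-fold higher and 2.93% lower. The brightest pump genes atp6v1g1, atp6v0ca and atp6v1ba were at -0.07, 0.29 and 0.16, and the second probe set of atp6v0ca was at 0.01.

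**Figure D4:**
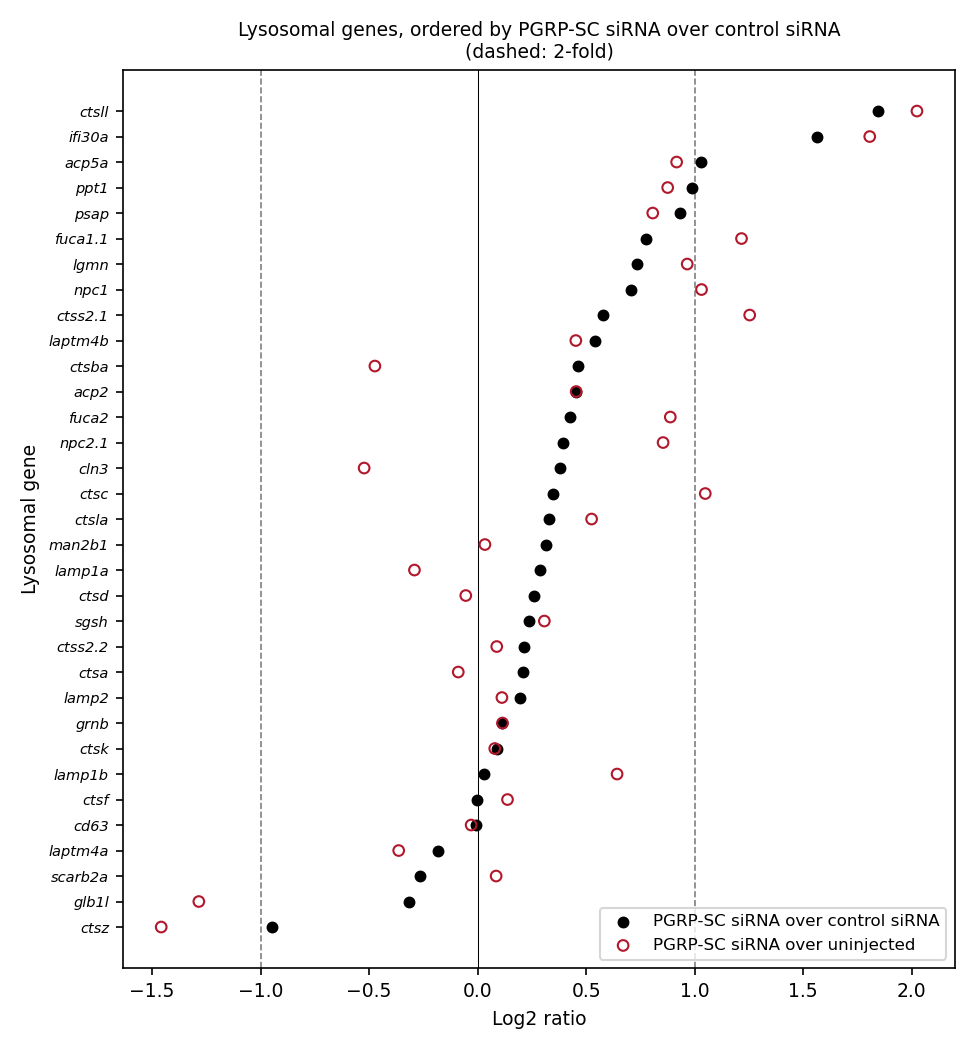
Log2 ratio of the 33 lysosomal genes with a ratio over control siRNA, ordered by it, for PGRP-SC siRNA over control siRNA (filled) and over uninjected (open), with 2-fold dashed. The lowest gene in both is ctsz, which had been chosen on the comparison with control siRNA, at -0.95 and -1.46. The highest is ctsll, at 1.84 and 2.02.

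Genes of primitive erythrocytes, another blood lineage of the embryo, were mostly lower with PGRP-SC siRNA, as lyz was, and also lower with control siRNA than in uninjected embryos. Of 10 with a ratio over control siRNA, 9 were below 0, 2 of them by 2-fold or more, and the median was -0.62, where 50.3% of all genes were below 0 and 2.93% at least 2-fold lower. The exception was the carbonic anhydrase gene cahz, named after its values were seen, at 0.82. Over uninjected embryos 11 of 12 were below 0, 6 of them by 2-fold or more, and the median was -1.04, where 48.2% of all genes were below 0 and 6.09% at least 2-fold lower. For control siRNA over uninjected all 12 were below 0, 2 of them by 2-fold or more, with a median of -0.59, where 47.7% of all genes were below 0 and 0.774% at least 2-fold lower. The anion exchanger gene slc4a1a had 229.7 with PGRP-SC siRNA, 697 with control siRNA and 1394 without injection, and the spectrin gene sptb had 99.1 with PGRP-SC siRNA, under the floor, 266 with control siRNA and 416 without injection. The globin genes hbae3, hbbe3 and hbbe2 had log2 ratios of -0.69, -0.25 and -0.26 over control siRNA. The summed signal of the list was 24911.5 with PGRP-SC siRNA, 34938.3 with control siRNA and 52109.7 without injection, the same order of arrays as for lyz and ctsz, and the part of the makeup of the blood in their ratios was not tested.

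For each of the 4 genes, the most similar patterns were sought among 5484 named genes above the floor in all 3 arrays, by the distance between log2 ratios over control siRNA and over uninjected. Nearest to cebpa were il17rd, fam162a and tmem67, at distances of 0.06, 0.07 and 0.08, with ratios over control siRNA of 1.14, 1.14 and 1.24. Nearest to cebpb were snx10a, lmbr1l and pik3ip1, at 0.06, 0.07 and 0.10. Nearest to lyz were rpz5, calr and ecsit, at 0.02, 0.03 and 0.05, although the second probe set of calr had a log2 ratio of 0.24 over control siRNA and not the -0.61 of the brighter one. Nearest to ctsz were ckbb, tubb4bl and mybpc3, at 0.02, 0.04 and 0.05. With 3 arrays such likeness rests on a pair of ratios for each gene, and none of these neighbours is in any of the gene lists used.

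The 4 genes kept their direction under the 7 other scalings and floors tried. A floor or a pseudocount cannot reverse a ratio, and cebpa, cebpb and lyz lay above every floor, so only the rescalings could have changed a direction. Over these settings and the reported one, the log2 ratio over control siRNA ran from 1.15 to 1.26 for cebpa, from 1.16 to 1.37 for cebpb, from -0.59 to -0.49 for lyz and from -0.95 to -0.17 for ctsz. The range of ctsz was the widest, and its value nearest to 0 came from the floor at the 60th percentile.

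**Figure D5:**
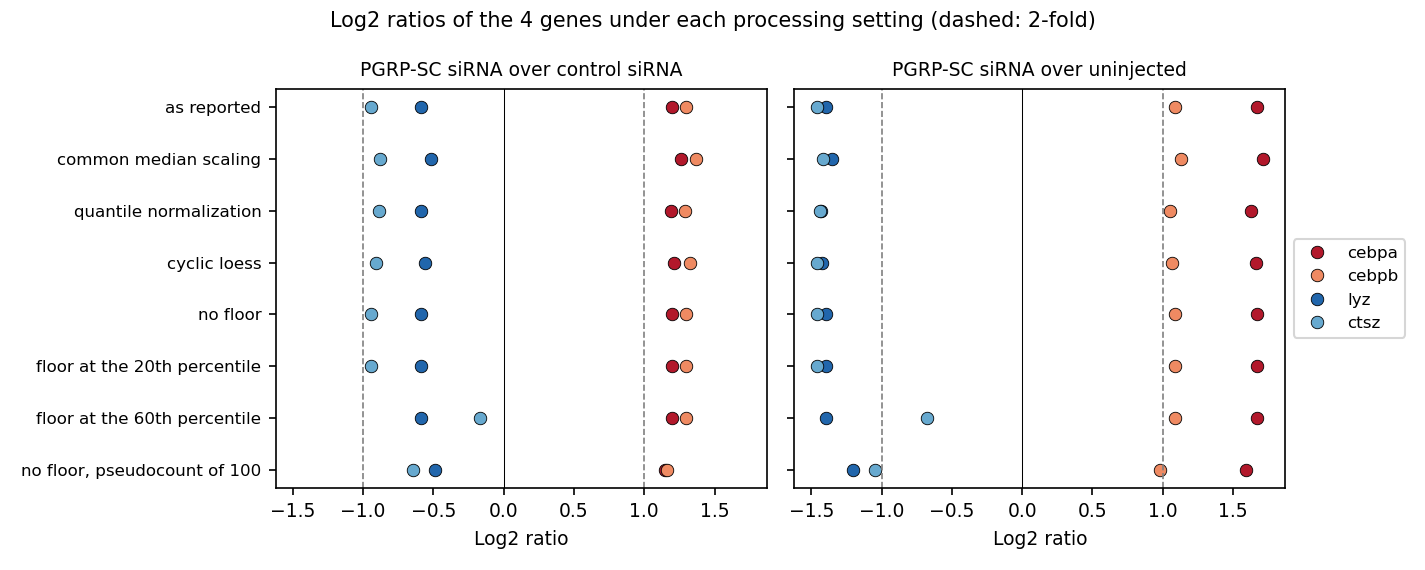
Log2 ratios of the 4 genes (points) under the reported processing and 7 alternatives (rows), for PGRP-SC siRNA over control siRNA on the left and over uninjected on the right, with 2-fold dashed. Both C/EBP genes stay to the right of 0 and lyz and ctsz to the left in every row, and the largest shift is that of ctsz with the floor at the 60th percentile.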

How the data were processed

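Biotin-labelled cRNA of 3 embryo pools was hybridised to 1-colour Affymetrix arrays, per the labels' protocols. The authors deposited a linear intensity for each probe set in each array, made with GCOS 1.4 per the submitters' processing notes, and other settings are not given in the sources used here. Each array had a 2% trimmed mean of 500.1, so the values hide any difference in total RNA per embryo. The 115 control probe sets of 15617 were set aside. Arrays were rescaled to a common 2% trimmed mean (factors 1.00, 0.999 and 1.00 for PGRP-SC siRNA, control siRNA and uninjected), and signals under 101.7 were set to that floor. Log2 ratios are bounds where 1 array was under the floor and were left out where both were. The platform annotation gave 1 gene for 10795 probe sets, several for 135 and none for 4572; symbols were updated through 10711 gene IDs held by the reference gene table. In lists each gene is represented by its brightest probe set, by mean signal.

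The genes, the 10 gene lists (241 symbols, 9 unmatched) and the tests were chosen with earlier results of these data known. Named genes are the members, all immune-list genes with a ratio, the other cathepsins, and from the other lists those 2-fold or more from both controls in 1 direction and the 3 brightest, plus the 3 nearest patterns per member; genes outside this rule are marked in the text. The list titled yolk syncytial layer and liver is given in the closing section. Counting was tested on simulated data. Alternatives were median scaling, quantile normalization, cyclic loess (limma 3.58.1 in R 4.3.3), other floors, a pseudocount of 100, a mean over probe sets and a 1.5-fold threshold. Python 3.11.15, numpy 2.4.6 and pandas 2.3.3 were used.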

Additional observations from a re-analysis of the deposited data

Results flagged for a closer look

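A control probe set of the array maker, outside every comparison above, read 26710 with PGRP-SC siRNA, 125 with control siRNA and 15050 without injection. It was singled out because it was brighter with PGRP-SC siRNA than in both controls and the controls themselves differed widely. The annotation used here names no gene for it, and what it targets was not looked up. The submitters describe the embryos as mixed before they were divided, and this probe set was not used to check that. Whether the pools differed in more than the injection, which would bear on every ratio above, was not tested.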

How the results depend on the processing

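No paired analysis was possible because each group has 1 array, and no array could be left out for the same reason. All 12 ratios of the 4 genes kept their sign under each alternative run, though a floor or a pseudocount cannot reverse a ratio. The 3 gaps between the pair cebpa and cebpb and the pair lyz and ctsz kept their sign as well. Of the ratios over uninjected embryos, 2 fell short of 2-fold: ctsz at -0.68 under the 60th percentile floor, which lies above its PGRP-SC siRNA signal, and cebpb at 0.98 with the pseudocount, which shrinks ratios. The gap over control siRNA ran from 1.62 to 2.01. The lysosomal median over uninjected embryos moved to 0.38 with no floor, from 40 genes. Counts of probe sets depended on the floor and threshold. Over control siRNA, 1450 were higher and 1590 lower with no floor, 509 and 606 under the 20th percentile floor, 155 and 137 under the 60th, 151 and 153 with the pseudocount, and 1060 and 1235 at 1.5-fold, against 279 and 345 as reported. Over uninjected embryos the counts were 1738 higher and 2107 lower with no floor, 317 and 317 under the 60th percentile floor, 329 and 377 with the pseudocount and 1573 and 1589 at 1.5-fold, and 1070 were lower under that of the 20th, against 556 and 633. Between control siRNA and uninjected embryos they were 1082 higher and 1221 lower with no floor, 240 and 254 (20th percentile), 40 and 38 (60th), 43 and 33 (pseudocount), and 640 and 535 (1.5-fold), against 108 and 84. Signal over background limits ctsz, spi1b, mpx and most leukocyte genes most.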

Other observations

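Genes of the yolk syncytial layer and liver, tissues where C/EBP factors also act, went both ways. Of 17 with a ratio over control siRNA, 11 were above 0 and 6 below, where 49.7% of all genes were above 0. The median log2 ratio was 0.05, and 0 passed 2-fold upward and 1 downward, where 2.87% of all genes passed upward and 2.93% downward. Over uninjected embryos 1 of 18 passed upward and 5 downward, with a median of 0.10, where 5.76% of all genes passed upward and 6.09% downward. The apolipoprotein genes apoa1a, apoeb and apoc1 were at 0.49, 0.43 and 0.02, and the retinol binding protein gene rbp4 had signals of 942 with PGRP-SC siRNA, 3979 with control siRNA and 2960.0 without injection. The early liver and gut factor gene foxa3, chosen after its values were seen, was at 0.90, while the fibrinogen genes fga and fgb, chosen in the same way, were at -0.72 and -0.99.

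Endothelial genes, from the lineage that shares its origin with blood, had 4 of 5 ratios over control siRNA below 0, 0 of them 2-fold. Over all genes 50.3% were below 0 and 2.93% at least 2-fold lower. The median of the list was -0.64, which ran from -0.85 to -0.13 over the alternatives. Of those 4 ratios, fli1 at -0.83 and tie1 at -0.02, named after their values were seen, were bounds, with the PGRP-SC siRNA signal under the floor. The VEGF receptor gene kdrl was at -0.68, fli1rs, an ETS factor gene, at -0.64 and flt4 at 0.37. The median of the list over uninjected embryos was -0.38 and ran from -0.65 to 0.05 over the alternatives.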
